A study of Homo sapiens with 12 samples.

Results

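The let-7 family guide strands are hsa-let-7a-5p, hsa-let-7b-5p, hsa-let-7c-5p, hsa-let-7d-5p, hsa-let-7e-5p, hsa-let-7f-5p, hsa-let-7g-5p, hsa-let-7i-5p and hsa-miR-98-5p, the 5p arms of their hairpins (the species prefix is left out from here on). They were taken from the count table by name, 1 entry per mature name, and where a name was listed at several hairpins the hairpin with the highest total over all libraries stood for it. This gave 9 members of the 1906 annotated mature names, and all 9 were among the 608 names that passed the filter on low counts. The study sequenced small RNAs of 2 gastric cancer lines, HGC-27 and AGS, both established human lines, given SAHA at 5 µM or DMSO as vehicle for 24 h. SAHA (vorinostat) inhibits histone deacetylases. The 4 groups, HGC-27 DMSO, HGC-27 SAHA, AGS DMSO and AGS SAHA, held 3 replicates each, or 12 libraries in all. Each line was treated at a single dose and for a single time, and no other allele or agent is named in the labels.

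MicroRNAs are cut from hairpin transcripts, and 1 strand, the guide, is loaded into an Argonaute protein and directs it to messenger RNAs that pair with the seed near its 5′ end. let-7 was found in the worm Caenorhabditis elegans as a regulator of developmental timing, and in mammals the family restrains growth-promoting genes such as RAS, MYC and HMGA2. The RNA-binding proteins LIN28A and LIN28B bind let-7 hairpins and block their maturation.

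The mature sequences are shown because every result below compares RNAs that share the seed and differ elsewhere by a few bases. They were matched by name for all 9 members to the RefSeq table of GRCh38.p14, and the capitals mark the seed, bases 2 to 8 from the 5′ end.
let-7a-5p: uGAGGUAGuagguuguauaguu
let-7b-5p: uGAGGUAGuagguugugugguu
let-7c-5p: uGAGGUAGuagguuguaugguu
let-7d-5p: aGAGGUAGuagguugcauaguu
let-7e-5p: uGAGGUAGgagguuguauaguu
let-7f-5p: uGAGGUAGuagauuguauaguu
let-7g-5p: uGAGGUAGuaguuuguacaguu
let-7i-5p: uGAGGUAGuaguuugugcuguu
miR-98-5p: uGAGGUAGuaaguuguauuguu

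All 9 had 22 bases and the seed GAGGUAG, and 8 of the 22 positions varied among them, none of them inside the seed. With let-7a-5p as the reference and positions counted from 1 at its 5′ end, let-7c-5p carried A19G, let-7e-5p carried U9G and let-7f-5p carried G12A. let-7b-5p carried A17G and A19G, let-7d-5p U1A and U16C, let-7g-5p G12U and U18C, and miR-98-5p G11A and A19U. let-7i-5p carried G12U, A17G, U18C and A19U. Of the 36 pairs of members, 4 differed at 1 base: let-7a-5p with let-7c-5p, let-7e-5p and let-7f-5p, and let-7b-5p with let-7c-5p. let-7d-5p and let-7i-5p were farthest apart, with 6 differences. How the authors assigned reads that fit several members is not given in the sources used here, so the split between members that differ at 1 base is uncertain.

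Of the 2370 mature names in the same table, 11 held this seed. The others were miR-4458 on chromosome 5 and miR-4500 on chromosome 13, which are shorter and differ from let-7 after the seed.
miR-4458: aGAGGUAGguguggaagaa
miR-4500: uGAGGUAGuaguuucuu

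Both were near the lower limit of the table and did not pass the filter. miR-4458 had 2, 2 and 4 counts in the HGC-27 DMSO libraries and nothing listed in the other 9. miR-4500 had 0, 3 and 4 counts in HGC-27 DMSO, 2, 4 and 2 in HGC-27 SAHA, 0 in all 3 AGS DMSO libraries and 6, 22 and 5 in AGS SAHA. The smallest count listed anywhere was 2, so a 0 here means that nothing was listed. The members' own counts lay between 3054 and 241602 per library, and at the smallest of these the counting error was 1.81%.

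The 9 members come from 12 hairpin loci (GRCh38, annotation of GENCODE 29). let-7a-1 (chr9:94175957-94176036), let-7f-1 (chr9:94176347-94176433) and let-7d (chr9:94178834-94178920) lie in a row on the plus strand, 310 and 2400 bases apart, in introns of a lincRNA gene. let-7a-3 (chr22:46112749-46112822) and let-7b (chr22:46113686-46113768) lie 863 bases apart in exons of MIRLET7BHG. miR-98 (chrX:53556223-53556341) and let-7f-2 (chrX:53557192-53557274) lie 850 bases apart in introns of HUWE1, a ubiquitin ligase gene, on its strand. let-7g (chr3:52268278-52268361) lies in an intron of WDR82, which encodes a subunit of a histone methyltransferase complex, and let-7i (chr12:62603686-62603769) in an intron of a lincRNA gene and opposite an exon of LINC01465.

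The other 3 loci neighbour members of the miR-99/100 and miR-125 families. let-7e (chr19:51692786-51692864) lies 104 bases from miR-99b and 389 bases from miR-125a in introns of SPACA6. let-7c (chr21:16539828-16539911) lies 658 bases from miR-99a in an intron of MIR99AHG. let-7a-2 (chr11:122146522-122146593) lies 5635 bases from miR-100 and 46677 bases from miR-125b-1 in introns of MIR100HG.

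The mature let-7a-5p is the same at its 3 loci and let-7f-5p at its 2, so these loci cannot be told apart by the mature strand. The count table listed both names at each of their hairpins with nearly equal counts. The let-7a-3 entry exceeded the let-7a-2 entry, the lowest of the 3, by 0.591% to 1.41%. The let-7f-2 entry exceeded let-7f-1 by 2.15% to 3.06%. The values below are those of the let-7a-3 and let-7f-2 entries and stand for the mature strand, not for these loci. The entries were read as the same reads listed more than once, but the counting rule is not given. Had reads been divided among the hairpins, the levels of let-7a-5p and let-7f-5p and the summed level would be too low. The order and shares of the members could then differ. The letters GGAG, the motif that LIN28 proteins bind, were found on the transcribed strand of 9 of the 12 hairpins (not let-7a-3, let-7b or miR-98) and of 43.4% of the 1562 hairpins in the table. A match describes the sequence only.

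Total counts per library lay between 2665109 and 6525388. All 8 gut epithelial marker microRNAs were listed in every library, with a summed level of 1572 to 8024 CPM, although miR-141-3p, an epithelial marker, stayed between 1.00 and 14.3 CPM. HGC-27 SAHA 2 stood apart from its replicates over all 608 microRNAs, with a root mean square log2 difference of 1.22 against 0.95 and 0.83 for the other two. It also had the highest summed level of 6 muscle, liver and neuron markers, 3167 CPM against 139 and 417 CPM in its replicates, mainly from miR-9-5p, a neuronal microRNA (2657 CPM). Control libraries stood out in markers too. HGC-27 DMSO 1 had 1162 CPM of the same markers, mainly from miR-1-3p (1035 CPM), against 96.6 and 39.5 CPM in its replicates. AGS DMSO 2 had 8024 CPM of gut markers against 2922 and 3365 CPM. The labels number the replicates without stating that each was its own culture. The p-values therefore reflect spread among these samples alone, and that spread may be technical. The labels give no batch.

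let-7i-5p, let-7f-5p and let-7g-5p were among the most abundant microRNAs in all 4 groups. The other members ranked lower, between 19 (let-7b-5p in HGC-27 DMSO) and 67 (let-7e-5p in AGS SAHA). Levels are CPM (counts scaled to a common total of annotated microRNA counts) adjusted by TMM, a factor per library that aligns the bulk of the microRNAs, and are written as mean ± SD of n = 3 libraries. All 9 members have the same length, so their order is the same per base. How evenly the libraries captured the different sequences was not measured, so the order and shares are those of counts. let-7i-5p ranked between 3 and 6 among all annotated microRNAs in the 4 groups, let-7f-5p ranked 7 in each, and let-7g-5p ranked 5 in both HGC-27 groups and 10 and 9 in the AGS groups. These 3 made up 78.7% ± 0.778 of the members' counts in HGC-27 DMSO and 81.1% ± 1.57 in AGS DMSO.

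In HGC-27 DMSO the order was let-7i-5p (45096 ± 4642 CPM), let-7g-5p (37555.5 ± 3524), let-7f-5p (27383 ± 2155), let-7b-5p (10988 ± 973), let-7a-5p (9536 ± 728), let-7e-5p (2983 ± 182), miR-98-5p (2836 ± 176), let-7d-5p (1724 ± 106) and let-7c-5p (1662 ± 91.7). The libraries of 4 neighbouring pairs in that order overlapped: let-7i-5p with let-7g-5p, let-7b-5p with let-7a-5p, let-7e-5p with miR-98-5p, and let-7d-5p with let-7c-5p. In AGS DMSO let-7i-5p was again highest (51601 ± 5449.8 CPM), followed by let-7f-5p (26807 ± 333) and let-7g-5p (18510.4 ± 1421), and these 3 did not overlap each other. Below them let-7b-5p (7025 ± 891 CPM) overlapped let-7a-5p (6984 ± 545), miR-98-5p (2747 ± 461) overlapped let-7c-5p (2198 ± 246), and let-7d-5p (1877 ± 86.8) overlapped let-7e-5p (1777 ± 191).

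**Figure D1:**
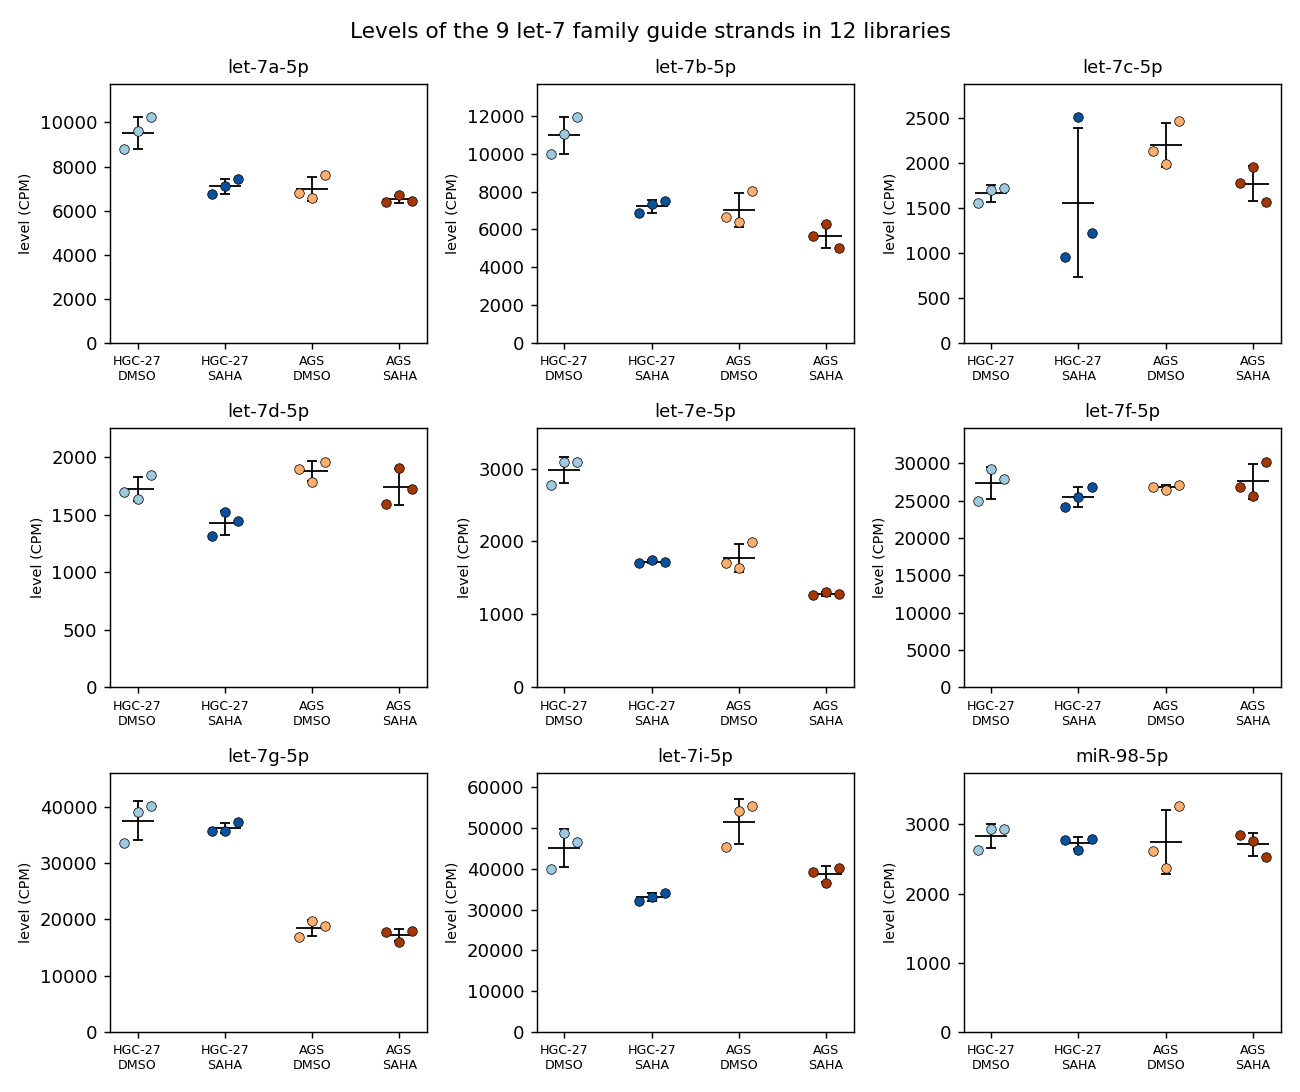
Level of each let-7 family guide strand in CPM (y axes from 0, a scale of its own in each panel) by group. Points are libraries, with the mean and SD of 3 drawn as lines: let-7g-5p is lower in all AGS libraries than in all HGC-27 libraries, and 1 of the 3 HGC-27 SAHA libraries stands far above the other two for let-7c-5p.

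The first question is which members SAHA changed in HGC-27. With SAHA let-7e-5p fell by 42.3%, let-7b-5p fell by 34.1%, let-7i-5p fell by 26.7%, let-7a-5p fell by 25.5% and let-7d-5p fell by 17.4%, and no member rose. let-7f-5p, let-7g-5p, miR-98-5p and let-7c-5p were not called. Calls are adjusted p-values under 0.05 from edgeR's quasi-likelihood test with Benjamini-Hochberg adjustment over the 608 microRNAs. The count was thus 5 of 9 lower and 0 higher, where 19.1% of all microRNAs tested were called lower and 21.7% higher. The SAHA libraries lay below all DMSO libraries for the same 5 members and above them for none, against 27.5% and 30.4% of the microRNAs tested. The median log2 fold change was -0.28 over the members and 0.08 over all 608. In bulk RNA, a lower level from fewer cells with the RNA and from less RNA per cell cannot be told apart.

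let-7e-5p changed most. It measured 2773, 3090.3 and 3086 CPM in the HGC-27 DMSO libraries, in the order of the replicate numbers, and 1701, 1746 and 1715 CPM in the SAHA libraries. All 3 SAHA libraries lay below all 3 DMSO libraries and close to each other. let-7e-5p fell by 0.79 on the log2 scale (SE 0.09, edgeR adjusted p = 8.41e-05).

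let-7b-5p measured 9986, 11049 and 11929 CPM with DMSO and 6854, 7333 and 7520.5 CPM with SAHA. Its groups did not overlap, and it fell by 0.60 (SE 0.11, edgeR adjusted p = 0.00191). let-7a-5p, which shares the host gene of let-7b at 1 of its loci, measured 8778, 9599 and 10229.8 CPM with DMSO and 6761, 7095 and 7457 CPM with SAHA. Its groups did not overlap either, and it fell by 0.42 (SE 0.08, edgeR adjusted p = 0.00233).

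let-7i-5p, the most abundant member with DMSO, measured 39895, 48819.7 and 46574 CPM with DMSO and 32075, 32999 and 34127 CPM with SAHA. The SAHA libraries all lay lower, and HGC-27 DMSO 1 was nearest to them. It fell by 0.45 (SE 0.10, edgeR adjusted p = 0.00427). let-7d-5p measured 1699, 1633 and 1840.01 CPM with DMSO and 1312, 1522 and 1439.9 CPM with SAHA, again without overlap. It fell by 0.28 (SE 0.09, edgeR adjusted p = 0.0373), the smallest and weakest of the called changes.

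let-7g-5p measured 33531, 39049 and 40087 CPM with DMSO and 35743, 35727 and 37314 CPM with SAHA, and the groups overlapped. Its log2 difference was -0.05 (95% interval -0.25 to 0.15, edgeR adjusted p = 0.695). let-7f-5p, at 27383 ± 2155 and 25529.6 ± 1339.6 CPM, differed by -0.10 (95% interval -0.29 to 0.08, edgeR adjusted p = 0.375). miR-98-5p, which shares HUWE1 with let-7f-2, was at 2836 ± 176 and 2731 ± 92.3 CPM and differed by -0.05 (95% interval -0.30 to 0.20, edgeR adjusted p = 0.751). For these 3 the ranges of both groups overlapped.

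The value for let-7c-5p rested on 1 library. It measured 1557, 1704 and 1726 CPM with DMSO, and 954, 2507 and 1219 CPM with SAHA, so 2 SAHA libraries lay below every DMSO library and HGC-27 SAHA 2 lay above them all. Over all libraries the log2 difference was -0.09 (95% interval -0.71 to 0.53, edgeR adjusted p = 0.832). Without HGC-27 SAHA 2 it was -0.55 (edgeR adjusted p = 0.024). In the same library miR-99a-5p, from the same host gene, reached 10368 CPM, with 9425 and 8078 CPM in its replicates. let-7b-5p and let-7a-5p, each 1 base from let-7c-5p, lay between their replicates there. HGC-27 SAHA 2 also had the highest summed level of muscle, liver and neuron markers in its group. The cause of its high let-7c-5p value was not tested.

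Among the called members, let-7d-5p lost its call whichever of the 6 HGC-27 libraries was left out, with adjusted p-values from edgeR between 0.0776 and 0.206. In all it lost the call in 13 of 16 alternatives and kept it in 3: with no filter on low counts, with predicted entries added and by DESeq2. Its edgeR adjusted p was 0.0576 with the replicate number as a block, 0.061 with DESeq2's size factors, 0.369 with plain library totals, 0.18 with hairpin entries summed and 0.151 with the 6 HGC-27 libraries fitted alone. With the authors' normalized values its limma adjusted p was 0.162. let-7i-5p lost it without HGC-27 DMSO 2 (-0.35, edgeR adjusted p = 0.0511), which left 3 members called. With SAHA the summed level of the gut markers was higher in HGC-27 (6681 to 7002 CPM against 1572 to 2746). Most of that sum was miR-192-5p (5580.1 to 5779 CPM against 1081 to 1734). miR-194-5p was also higher without overlap (503 to 571 CPM against 113 to 209), miR-200c-3p was lower without overlap (67.8 to 75.3 CPM against 87.6 to 121), and the other 5 gut markers overlapped. The summed levels of 5 fibroblast and smooth muscle markers (714 to 2258 CPM against 163 to 1181), of 6 blood cell markers (48.7 to 440.5 CPM against 39.1 to 247) and of 6 muscle, liver and neuron markers (139 to 3167 CPM against 39.5 to 1162) overlapped. Of the fibroblast and smooth muscle markers, miR-199b-5p (497 to 524.8 CPM against 70.2 to 77.3) and miR-199a-3p (88.4 to 203 CPM against 13.6 to 44.9) were higher with SAHA without overlap. miR-9-5p, from the muscle, liver and neuron list, was higher with SAHA without overlap (72.8 to 2657 CPM against 14.5 to 57.7). So was miR-124-3p from that list (1.25 to 180 CPM against 0 to 0.753). Of the blood cell markers, miR-144-3p was higher without overlap (1.36 to 1.79 CPM against 0 to 0.491). miR-206, a muscle marker, was at 0 in all 3 SAHA libraries and in HGC-27 DMSO 2 and 3, and at 0.736 CPM in HGC-27 DMSO 1. miR-223-3p, a myeloid marker, stayed at or below 0.717 CPM in every library. The part of these markers in the let-7 changes was not tested. Without the library of each group farthest from its replicates, HGC-27 SAHA 2 among them, 5 members were called lower, but not the same 5: let-7d-5p was not called (-0.30, edgeR adjusted p = 0.0971) and let-7c-5p was (-0.62, edgeR adjusted p = 0.00783).

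The same comparison in AGS gave fewer calls. With SAHA let-7e-5p fell by 27.7% and let-7i-5p fell by 24.9%, and the other 7 members were not called. The count of 2 of 9 lower and 0 higher stands beside 11.5% called lower and 15% called higher among all microRNAs tested. The median log2 fold change was -0.11 over the members and 0.08 over all 608, and the members' median turned to 0.08 with plain library totals, which moved the median of all microRNAs by 0.19.

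let-7e-5p measured 1704, 1632 and 1993 CPM in the AGS DMSO libraries and 1263, 1313 and 1277 CPM in the SAHA libraries. The groups did not overlap, and it fell by 0.47 (SE 0.09, edgeR adjusted p = 0.00326). let-7i-5p measured 45348, 54111 and 55342 CPM with DMSO and 39346, 36660.5 and 40286 CPM with SAHA. It fell by 0.41 (SE 0.10, edgeR adjusted p = 0.0107), with no overlap between the groups.

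let-7b-5p measured 6665, 6371 and 8040.1 CPM with DMSO and 5661, 6274 and 5024 CPM with SAHA. Its groups just failed to overlap, but its log2 difference of -0.31 (95% interval -0.56 to -0.06) missed the threshold (edgeR adjusted p = 0.0689). let-7c-5p showed the same pattern, at 2136, 1989.99 and 2469 CPM with DMSO and 1780.03, 1961 and 1569 CPM with SAHA, with a log2 difference of -0.31 (95% interval -0.93 to 0.31, edgeR adjusted p = 0.453). In all, 4 of 9 members had all SAHA libraries below all DMSO libraries in AGS, where 16% of the microRNAs tested did, and 0 had them all above, where 22.7% did.

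The groups of the other 5 overlapped. let-7a-5p was at 6984 ± 545 CPM with DMSO and 6507 ± 157 CPM with SAHA (log2 difference -0.10, edgeR adjusted p = 0.423). let-7d-5p differed by -0.11 (edgeR adjusted p = 0.438) and let-7g-5p, at 18510.4 ± 1421 and 17191 ± 1043 CPM, by -0.11 (edgeR adjusted p = 0.427). let-7f-5p, at 26807 ± 333 and 27587 ± 2333 CPM, was the only member with a positive estimate (0.04, edgeR adjusted p = 0.747), and miR-98-5p differed by -0.02 (edgeR adjusted p = 0.921).

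The let-7i-5p call in AGS was lost without AGS DMSO 3 (-0.36, edgeR adjusted p = 0.0612) or AGS SAHA 2 (-0.40, edgeR adjusted p = 0.0549), and let-7b-5p was called without AGS DMSO 2 (-0.47, edgeR adjusted p = 0.028). let-7b-5p was also called lower by DESeq2 (-0.36, DESeq2 adjusted p = 0.0309) and with predicted entries added (-0.53, edgeR adjusted p = 0.0068). With plain library totals let-7e-5p was not called (-0.27, edgeR adjusted p = 0.0666) and let-7f-5p was called higher (0.23, edgeR adjusted p = 0.0352). In AGS the gut markers (2922 to 8024 CPM with DMSO, 5622 to 6849 with SAHA) and the fibroblast and smooth muscle markers (575 to 3528 and 1404 to 2026 CPM) overlapped between the groups as sums. Of the latter, miR-199b-5p (28.3 to 43.7 CPM with DMSO, 238 to 309 with SAHA) and miR-199a-3p (17.5 to 24.0 and 59.8 to 62.7 CPM) were higher with SAHA without overlap. The blood cell markers (187 to 376 and 118 to 226 CPM) and the muscle, liver and neuron markers (141 to 298 and 252 to 1563 CPM) overlapped too as sums. Of the last list, miR-9-5p (19.8 to 75.6 CPM with DMSO, 81.0 to 389 with SAHA) was higher with SAHA without overlap. The part of these markers in the results was not tested.

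**Figure D2:**
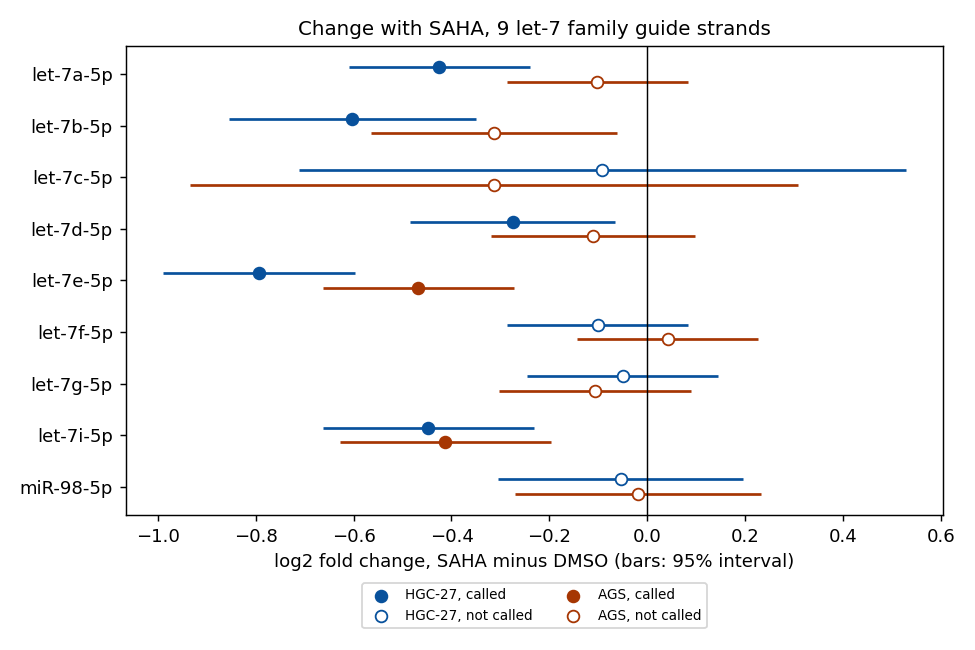
Log2 fold change of each member with SAHA against DMSO (x axis) in HGC-27 (blue) and AGS (brown). Bars are 95% intervals and filled points were called: 5 members in HGC-27 and 2 in AGS, all to the left of 0.

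Whether the response differed between the lines was tested by an interaction term. None of the 9 members was called by edgeR's quasi-likelihood test, where 1.81% of all microRNAs tested were, and none was called by DESeq2. At an unadjusted p under 0.05 there were 2. The log2 response of let-7a-5p was 0.32 higher in AGS (95% interval 0.06 to 0.58, edgeR adjusted p = 0.188), and that of let-7e-5p was 0.33 higher (95% interval 0.05 to 0.60, edgeR adjusted p = 0.203). let-7i-5p had nearly equal estimates in both lines, with a difference of 0.03 and a 95% interval of -0.27 to 0.34. The calls for let-7a-5p, let-7b-5p and let-7d-5p in HGC-27 alone were therefore not shown to be particular to that line.

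Added together, the members had a lower TMM-scaled level after SAHA in both lines. Their plain share of the library was lower without overlap in HGC-27 alone. The sum over the 9 was 125870, 147119 and 146301 CPM in HGC-27 DMSO and lay below that range in every SAHA library (112386 to 120476 CPM), a difference of the means of -16.5%. In AGS the sum was 119526 ± 8001.8 CPM with DMSO and 103207 ± 3826 CPM with SAHA, a difference of -13.7% with no overlap. As a plain share of annotated counts, without TMM, the family made up 13.2% ± 0.562 and 11.96% ± 0.765 in HGC-27, a relative difference of -9.20% with no overlap. In AGS the plain shares were 11.4% ± 0.449 and 11.2% ± 0.359, which overlapped. No test was run on the sums.

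Within the family the make-up does not depend on the scaling between libraries, since each member is taken as a share of the 9 members' counts in the same library. In HGC-27 let-7e-5p went from 2.14% ± 0.0568 to 1.48% ± 0.0470 of the family, let-7b-5p from 7.87% ± 0.327 to 6.20% ± 0.0905, let-7a-5p from 6.83% ± 0.265 to 6.09% ± 0.0899 and let-7i-5p from 32.2% ± 0.822 to 28.4% ± 0.174. let-7g-5p went from 26.9% ± 0.470 to 31.1% ± 0.649, let-7f-5p from 19.6% ± 0.469 to 21.9% ± 0.399 and miR-98-5p from 2.03% ± 0.0518 to 2.34% ± 0.115. None of these 7 overlapped between the groups, while let-7c-5p and let-7d-5p did. Such shares have no counterpart over all microRNAs. By level, 27.5% of the microRNAs tested lay lower with SAHA without overlap in HGC-27 and 30.4% higher. Shares add up to a fixed total, so these shares show unequal change and not which member changed.

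In AGS 3 shares did not overlap. By level, 16% of the microRNAs tested lay lower with SAHA without overlap in AGS and 22.7% higher. let-7i-5p went from 43.1% ± 1.97 to 37.5% ± 0.546, let-7e-5p from 1.49% ± 0.121 to 1.25% ± 0.0682, and let-7f-5p from 22.5% ± 1.46 to 26.7% ± 1.34. These 3 shares differed in the same direction as in HGC-27. The ratio of let-7i-5p to let-7g-5p counts, the top 2 members of HGC-27, went from 1.20 ± 0.0452 to 0.912 ± 0.0133 in HGC-27, so that let-7g-5p became the most abundant member. In AGS that ratio went from 2.78 ± 0.134 to 2.26 ± 0.0378. The ratio of let-7f-5p to let-7e-5p went from 9.17 ± 0.249 to 14.8 ± 0.752 in HGC-27 and from 15.2 ± 1.38 to 21.5 ± 2.05 in AGS, without overlap in either line. let-7e-5p had the largest fall in both lines and let-7f-5p was called in neither. This ratio therefore restates those results and adds no separate evidence.

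**Figure D3:**
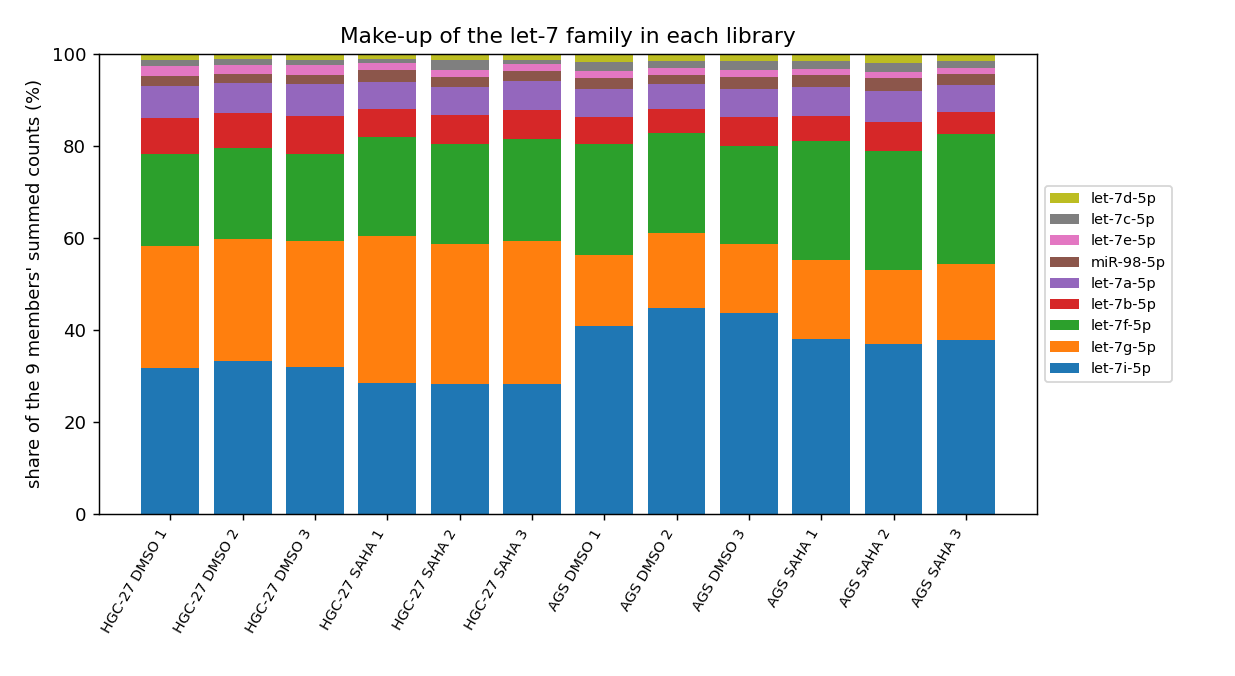
Share of each member in the 9 members' summed counts (y axis, %) in each of the 12 libraries (x axis). let-7i-5p, let-7g-5p and let-7f-5p fill most of every bar, the let-7g-5p band is wider in HGC-27 than in AGS, and the let-7i-5p band is narrower with SAHA in both lines.

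The lines differed at baseline most in let-7g-5p. With DMSO, AGS held less let-7g-5p (a difference of -50.7%), let-7e-5p (-40.4%), let-7b-5p (-36.1%) and let-7a-5p (-26.8%) than HGC-27, and no member was called higher. That is 4 of 9 lower, where 20.1% of all microRNAs tested were called lower and 24.5% higher. For these 4 all AGS libraries lay below all HGC-27 libraries, as they did for 26.5% of the microRNAs tested, and for 1 member they lay above, as for 28.8%. The median log2 difference was -0.05 over the members and 0.03 over all 608. The DMSO libraries are those of the SAHA comparisons above, so the results are not independent of them.

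let-7g-5p measured 16948, 18858 and 19725 CPM in AGS DMSO, from lowest to highest, and 33531 to 40087 CPM in HGC-27 DMSO. The ranges lay far apart, and the log2 difference was -1.02 (SE 0.09, edgeR adjusted p = 7.57e-06). let-7e-5p was at 1777 ± 191 CPM in AGS against 2983 ± 182 in HGC-27, a log2 difference of -0.75 (SE 0.09, edgeR adjusted p = 5.12e-05). let-7b-5p (-0.65, SE 0.11, edgeR adjusted p = 8.18e-04) and let-7a-5p (-0.45, SE 0.08, edgeR adjusted p = 0.00114) followed, also without overlap.

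let-7c-5p was the only member whose AGS libraries all lay above the HGC-27 libraries (2198 ± 246 against 1662 ± 91.7 CPM), but its log2 difference of 0.40 (95% interval -0.22 to 1.02) missed the threshold (edgeR adjusted p = 0.269). That fit shares its spread with the HGC-27 SAHA group, and in a fit of the 6 DMSO libraries alone let-7c-5p was called higher (0.41, edgeR adjusted p = 0.0206). let-7i-5p (0.19, edgeR adjusted p = 0.128), let-7d-5p (0.12, edgeR adjusted p = 0.32), let-7f-5p (-0.03, edgeR adjusted p = 0.81) and miR-98-5p (-0.05, edgeR adjusted p = 0.784) overlapped between the lines. let-7i-5p was called higher with plain library totals (0.21, edgeR adjusted p = 0.0325) and with the authors' normalized values (0.23, limma adjusted p = 0.0209). miR-98-5p was called lower without AGS DMSO 3 (-0.29, edgeR adjusted p = 0.0475).

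Under SAHA the lines again differed in let-7g-5p, at 17191 ± 1043 CPM in AGS and 36261 ± 912 CPM in HGC-27 (log2 difference -1.08, SE 0.09, edgeR adjusted p = 5.18e-06). let-7e-5p (1284 ± 26.2 against 1720.5 ± 23.0 CPM) was lower by a log2 difference of -0.42 (SE 0.09, edgeR adjusted p = 0.0029) and let-7b-5p (5653 ± 625 against 7236 ± 344 CPM) by -0.36 (SE 0.11, edgeR adjusted p = 0.0259). let-7d-5p was higher in AGS, at 1739 ± 157 against 1424 ± 106 CPM (0.29, SE 0.09, edgeR adjusted p = 0.029). The counts of 3 lower and 1 higher compare with 19.9% and 22.9% of all microRNAs tested. All AGS libraries lay below all HGC-27 libraries for 4 members and above them for 2, against 24.2% and 29.9% of the microRNAs tested.

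let-7a-5p, lower in AGS with DMSO, was at 6507 ± 157 against 7104 ± 348 CPM under SAHA and not called (-0.13, edgeR adjusted p = 0.254). Only the calls of let-7g-5p and let-7e-5p under SAHA held in every alternative tried. let-7d-5p lost its call whichever SAHA library was left out, with adjusted p-values from edgeR of 0.122 to 0.354. let-7b-5p lost it without HGC-27 SAHA 3 (-0.38, edgeR adjusted p = 0.0573) or AGS SAHA 3 (-0.35, edgeR adjusted p = 0.0664), which left 2 members called each time. It also lost the call with plain library totals, with no filter on low counts and with the authors' normalized values. In all, let-7b-5p lost its call in 5 of 16 alternatives and let-7d-5p in 13. With plain library totals and with the authors' normalized values, let-7i-5p and let-7f-5p were called higher in AGS. Neither was called in the main fit (0.23 and 0.11, edgeR adjusted p = 0.081 and 0.314). let-7a-5p was called lower with predicted entries added. let-7c-5p (0.18, edgeR adjusted p = 0.633) was called higher in AGS without HGC-27 SAHA 2 (0.61, edgeR adjusted p = 0.0113).

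**Figure D4:**
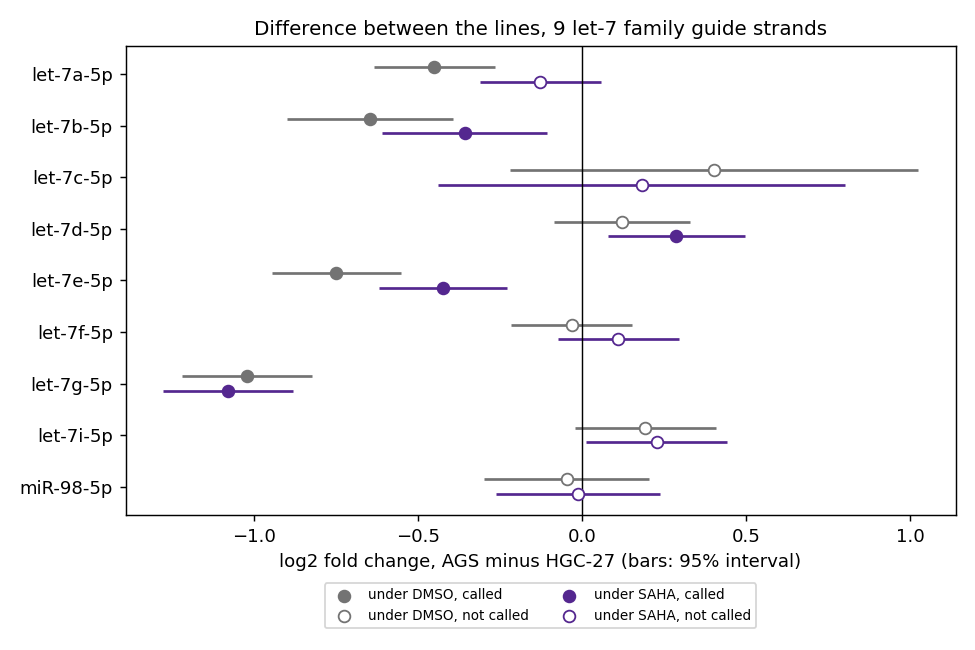
Log2 difference of each member between AGS and HGC-27 (x axis, AGS minus HGC-27) under DMSO (grey) and under SAHA (purple). Bars are 95% intervals and filled points were called: let-7g-5p lies near -1 under both conditions, and let-7d-5p, called higher in AGS under SAHA, is the only filled point to the right of 0.

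The microRNAs that flank 3 of the let-7 hairpins come from the same host genes. On chromosome 19, let-7e-5p and both of its neighbours were lower with SAHA in HGC-27. miR-99b-5p went from 8751 ± 388 to 5111 ± 405 CPM (-0.78, SE 0.15, edgeR adjusted p = 0.00209), close to the -0.79 of let-7e-5p, and miR-125a-5p from 3289 ± 239.6 to 2335 ± 121 CPM (-0.49, SE 0.17, edgeR adjusted p = 0.0347). In AGS, where let-7e-5p was called lower, miR-99b-5p (-0.33, edgeR adjusted p = 0.135) and miR-125a-5p (-0.17, edgeR adjusted p = 0.48) were not. All 3 were lower in AGS than in HGC-27 with DMSO, miR-99b-5p by -0.58 (edgeR adjusted p = 0.00805) and miR-125a-5p by -0.85 (edgeR adjusted p = 0.00165).

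On chromosome 21, let-7c-5p and miR-99a-5p were both uncalled with SAHA in either line. miR-99a-5p was at 9015 ± 589 and 9290.4 ± 1151 CPM in HGC-27 (0.04, edgeR adjusted p = 0.871) and at 23823 ± 5029 and 20188 ± 4342 CPM in AGS (-0.24, edgeR adjusted p = 0.359). Between the lines miR-99a-5p was higher in AGS with DMSO by 1.40 (SE 0.18, edgeR adjusted p = 8.04e-05), whereas the estimate for let-7c-5p was 0.40.

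On chromosome 11, miR-100-5p fell in HGC-27 from 34644 ± 1789 to 23385 ± 1199 CPM (-0.57, SE 0.12, edgeR adjusted p = 0.00367) and was at 60026 ± 8481.5 and 60601 ± 8823 CPM in AGS (0.01, edgeR adjusted p = 0.946). miR-125b-5p, whose mature strand also comes from another locus, was not called in HGC-27 (-0.16, edgeR adjusted p = 0.492) or AGS (0.00, edgeR adjusted p = 0.999). With DMSO, miR-100-5p was higher in AGS by 0.79 (edgeR adjusted p = 3.01e-04) and miR-125b-5p by 0.68 (edgeR adjusted p = 0.00619), the direction opposite to let-7a-5p, whose reads may come from any of its 3 loci.

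The opposite arms of the same hairpins, the 3p or passenger strands, were counted with the same rule. All 11 listed passed the filter. In HGC-27, 7 were called lower with SAHA and 0 higher, against 19.1% and 21.7% of all tested. In AGS 5 were called lower and 0 higher, against 11.5% and 15% of all tested. The interaction term called 0 of the 11 in edgeR, against 1.81% of all tested. Between the lines with DMSO, 3 were higher and 1 lower in AGS, against 24.5% and 20.1% of all tested, and under SAHA 4 were higher and 0 lower, against 22.9% and 19.9%.

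Of 214 other microRNAs with a mean of at least 100 CPM, those whose log2 level followed the family's summed level most closely over the 12 libraries were miR-99b-3p (Pearson r = 0.93), miR-30a-5p (0.92), miR-338-5p (0.88), miR-424-3p (0.87) and miR-92a-3p (0.86). The 12 points are 4 groups of 3 libraries and share the TMM scaling, so these values describe the pattern over groups. In HGC-27 all 5 were called lower with SAHA, from -0.52 for miR-424-3p to -1.07 for miR-338-5p. In AGS miR-338-5p (edgeR adjusted p = 7.88e-05), miR-99b-3p (-0.37, edgeR adjusted p = 0.0219) and miR-92a-3p (-0.38, edgeR adjusted p = 0.0426) were called lower, and miR-30a-5p (-0.23, edgeR adjusted p = 0.192) and miR-424-3p (-0.12, edgeR adjusted p = 0.522) were not. They were named for this likeness, so their changes add no separate evidence on the family.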

How the data were processed

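Total RNA was extracted with TRIzol and small RNA libraries were made with a ligation-based NEBNext kit, per the labels' protocols. The submitters' processing notes name cutadapt and Novoalign 2.07.11. Which build, database release and counting rule were used is not given in the sources used here. Counts were deposited by the authors as whole numbers per mature microRNA and hairpin, with all isoforms summed, per the file headers. A second deposited table holds a score, the authors' scaling of these counts to a common total per library, rounded to whole numbers, which was used for an alternative only. Blanks were read as 0. Of 2909 entries, 2049 were annotated (1906 mature names, 111 of them at more than 1 hairpin) and 860 predicted. The predicted entries were left out.

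Counts were fitted with edgeR 4.0.16 in R 4.3.3 (TMM, filterByExpr over the 4 groups, 608 microRNAs, 12 libraries, 1 coefficient per group, 8 residual degrees of freedom). The quasi-likelihood test gave p-values, with Benjamini-Hochberg adjustment over the 608 and calls under 0.05. SEs were taken as the absolute log2 fold change over the root of F, and 95% intervals from the t distribution. limma 3.58.1 and DESeq2 1.42.0 served alternatives. The test was checked on simulated data. Sequences and loci came from RefSeq and GENCODE 29 tables. Libraries had no molecular identifiers, so counting errors cover counting alone.

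The members and lists were chosen with earlier results of these data known. All 9 members were named, with other names sharing their seed, 5 cluster neighbours, the 3p arms as counts, and the 5 microRNAs most like the summed level.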

Additional observations from a re-analysis of the deposited data

How the results depend on the processing

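No call of a member reversed in 765 recomputed member values: 624 kept their direction and side of the threshold, 35 lost a call, 20 gained one and 86 uncalled values changed sign. The calls of let-7a-5p, let-7b-5p and let-7e-5p with SAHA in HGC-27, of those 3 and let-7g-5p between the lines with DMSO, and of let-7e-5p and let-7g-5p between the lines under SAHA held in every alternative run. Leaving out 1 library gave 3 to 5 members called for SAHA in HGC-27, 1 to 3 in AGS, 0 to 0 for the difference of the responses, 4 to 5 between the lines with DMSO and 2 to 4 under SAHA. Fitting annotated and predicted entries together called 6 members in AGS, all lower, and no filter on low counts left 2 between the lines under SAHA. The cause was not tested. Plain library totals, which shifted the median of all microRNAs by 0.12 in HGC-27 and 0.19 in AGS, put the summed level in AGS SAHA at 112093 CPM. Summing the hairpin entries put the sums at 160603 and 142983 CPM in HGC-27 and 140220 and 120465 CPM in AGS, with DMSO and SAHA. If the entries list the same reads, this counts let-7a-5p and let-7f-5p more than once. The fit of 6 libraries alone could not give the difference of the responses. Leaving out the library of each group farthest from its replicates was chosen after seeing the data and called 5, 2, 0, 4 and 4 members, in the order above.

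With the replicate number as a block 4, 2, 0, 4 and 4 members were called. Of 18 correlations between same-numbered libraries, 7 were over 0.1 (-0.32 to 0.50), and the highest was that of HGC-27 SAHA 2 with AGS SAHA 2. Libraries with different numbers were not compared, so these values cannot decide whether the numbers pair the samples. The main fit did not pair them. With 3 libraries a group and member counts of 3054 or more, spread between libraries limits precision more than depth does.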
